A study of Mus musculus with 7 samples.

Results

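Endocannabinoids are lipid messengers made on demand from membrane lipids. In the hippocampus 2-arachidonoylglycerol (2-AG) released from a stimulated neuron travels back across the synapse to the CB1 receptor on the incoming axon terminal and lowers transmitter release. The terminals of cholecystokinin (CCK) basket cells, a class of GABAergic interneuron, are known for dense CB1 receptor, and terminals of excitatory neurons carry less of it. Anandamide, the other main endocannabinoid, belongs to the N-acylethanolamines and has enzymes of its own for synthesis and breakdown.

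Described here are 8 genes of this system, chosen by name: the receptor gene Cnr1, the 2-AG synthases Dagla and Daglb, the 2-AG hydrolases Mgll, Abhd6 and Abhd12, and Napepld and Faah, which make and break down anandamide. Each of the 8 symbols matched 1 Ensembl ID among the 39017 in the deposited table, and all 8 passed the filter on low counts that left 19563 genes for testing. RNA came from mouse hippocampus by translating ribosome affinity purification (TRAP): Cre switches on a ribosomal protein fused to EGFP (L10-EGFP), and ribosomes that carry it are captured together with the transcripts on them. The bound group (3 libraries) holds the RNA pulled down, from mice with GAD2-driven Cre and the L10-EGFP allele, and the unbound group (4 libraries) holds RNA that was not pulled down, with no statement that both came from the same tissue samples. Each TRAP sample pooled 2 hippocampi, and all libraries came from the same kind of mouse as far as the labels say, with no age, sex or drug treatment given. GAD2 marks GABAergic neurons of all classes, so the bound RNA averages over them, and tagged ribosomes also report any cell in which Cre had acted earlier in life. Bound titles carry the prefix GAD_ctrl, and unbound titles the prefixes UBS (replicates 1 and 2) or UBGS (replicates 3 and 4), none of which the labels explain.

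Library totals ranged from 38690380 to 51953811 counts. Mitochondria-encoded genes took 0.087% to 0.123% of counts in bound libraries and 28.5% to 32.9% in unbound libraries. Values are given as CPM, the share of a library's counts scaled up to a common total, after TMM scaling, which sets libraries level on the bulk of genes, and, to compare genes with each other, in CPM per kilobase of merged exons (RPKM). Gad2 averaged 745.2 ± 20.2 CPM in bound libraries and 149.4 ± 42.1 CPM in unbound libraries (SD, n = 3 and 4), and Slc17a7, which loads glutamate into the vesicles of excitatory neurons, averaged 14.9 ± 2.38 CPM in bound libraries and 505.8 ± 21.2 CPM in unbound libraries. All 7 GABAergic markers found were higher in bound libraries. All 8 excitatory markers were lower there, with a summed level of 838.2 to 1018 CPM in bound libraries and 3948 to 6068 CPM in unbound libraries, and none of the 8 was at 0 in the bound group. All 8 microglia markers were higher, summing to 218.8 to 639.1 CPM in bound libraries (639.1 CPM in replicate 2) and 77.1 to 112.2 CPM in unbound libraries. Of 8 astrocyte markers 7 were lower, with sums of 271.3 to 296.6 CPM in bound libraries and 2105 to 3066 CPM in unbound libraries. All 8 oligodendrocyte and all 4 precursor markers were lower, as were 4 of 6 endothelial and mural markers. In such bulk RNA, fewer cells of a type and less RNA per cell cannot be told apart. The part of these other cell types in the results below was not tested, beyond the values given beside them.

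The 8 genes moved in both directions. Cnr1 rose 3.56-fold in bound libraries, and the hydrolase genes Mgll and Abhd12 rose 1.38-fold and 1.37-fold. Napepld and Faah, the anandamide pair, fell 3.24-fold and 2.82-fold, and Dagla, the main 2-AG synthase gene of the brain, fell 1.53-fold. Daglb and Abhd6 did not pass the threshold. Against a 1.5-fold minimum in the test, Cnr1, Napepld and Faah passed and the other 5 genes did not. The calls above are edgeR quasi-likelihood calls at an adjusted p under 0.05, with 3 genes higher and 3 lower. Over all genes tested the same rule called 61.7%, 31% higher and 30.7% lower, so the count of called members is near the background and says nothing particular about these genes. At least 2-fold differences were found for 3 of the 8 (Cnr1, Napepld and Faah) and for 32.3% of all genes. The groups' libraries did not overlap for the same 6 genes that passed the threshold, where 63.3% of all genes did not overlap. All bound libraries lay above all unbound ones for 3 of the 8 genes, against 31.7% of all genes, and below them for 3, against 31.6%. The median log2 fold change was 0.10 over the 8 genes and −0.01 over all genes tested.

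**Figure D1:**
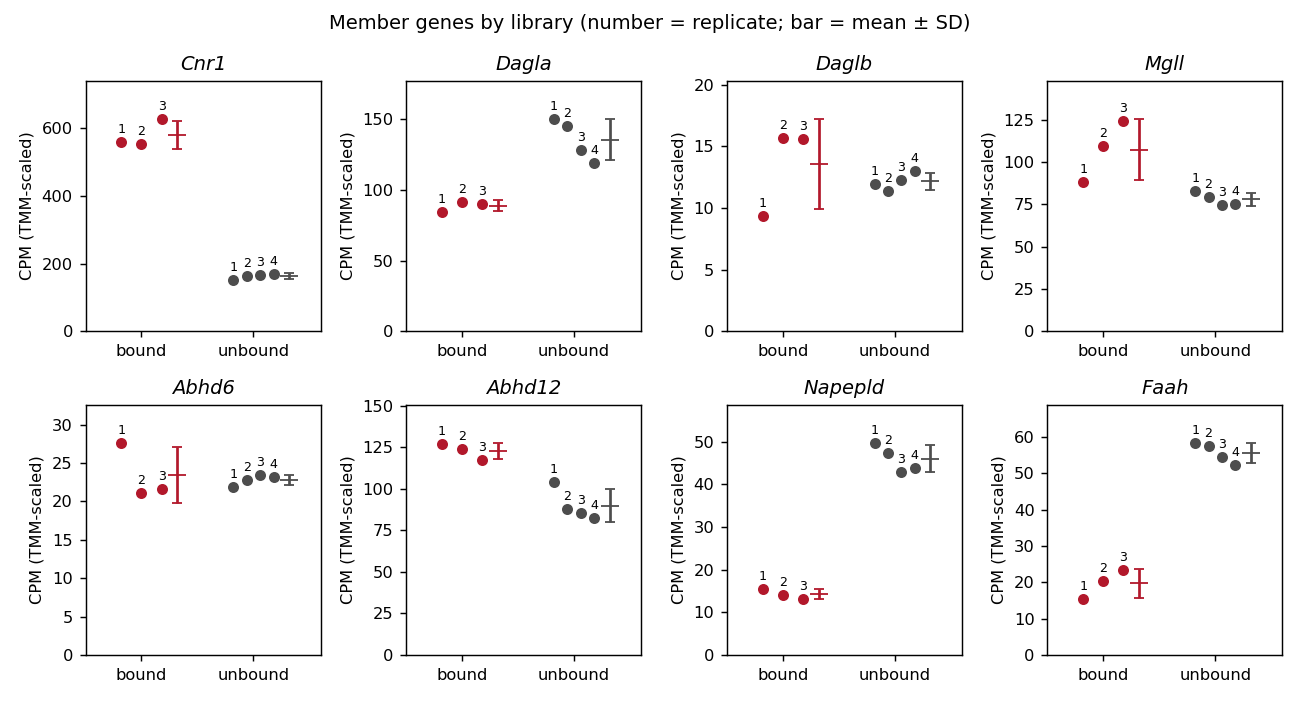
CPM of each of the 8 genes by library, with bound libraries (red, n = 3) left of unbound libraries (grey, n = 4), replicate numbers over the points and mean ± SD beside them. Bound libraries lie above all unbound libraries for Cnr1, Mgll and Abhd12 and below all of them for Dagla, Napepld and Faah. For Daglb and Abhd6 some bound libraries lie above all unbound ones and the others below all of them.

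Cnr1 encodes the CB1 receptor, a Gi/o-coupled receptor (ENSMUSG00000044288, mm10 chromosome 4, 33924593 to 33948831, plus strand, protein-coding; counts cover all its exons). Cnr1 stood at 559.5, 552.2 and 626.2 CPM in bound replicates 1 to 3 and at 151.6, 163.5, 166.6 and 169.6 CPM in unbound replicates 1 to 4. The lowest bound library was thus more than 3 times the highest unbound one, and the spread within either group was small. Its log2 fold change was 1.83 (SE 0.07, edgeR adjusted p = 7.2e-09), greater than that of 94.4% of genes tested. It stayed between 1.77 and 1.87 on leaving out any 1 library. Of 9 genes listed as CCK basket cell markers 8 were higher in bound libraries, Cnr1 itself among them, and none lower. All 7 GABAergic markers found were higher as well. Whether the CCK list sets these cells apart from other GABAergic neurons was not tested. The 9 summed to 1174 to 1403 CPM in bound libraries. In unbound libraries the sums were 302.6 and 311.4 CPM in UBS and 482.2 and 460.9 CPM in UBGS. Cnr1 gave 559.5 of 1227 CPM in bound replicate 1 and 151.6 of 302.6 CPM in unbound replicate 1. The sums are therefore no separate evidence on Cnr1.

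The genes nearest to Cnr1 in pattern were sought among 8589 other protein-coding genes with a mean of at least 10 CPM, by the root mean square difference of log2 CPM centred on each gene's mean over the 7 libraries. The nearest was Evl, an actin regulator of the Ena/VASP family, at a difference of 0.044 log2 units, with 159 ± 6.40 CPM in bound libraries and 46.0 ± 2.79 CPM in unbound libraries. Atp5j2, a subunit of mitochondrial ATP synthase, followed at 0.045, and then Hmga1, 2410015M20Rik and Hmga1b at 0.054, 0.056 and 0.057. Hmga1 and Hmga1b are near-identical copies, and how their reads were divided is uncertain. Among the other endocannabinoid genes Mgll and Abhd12 came nearest to Cnr1, at 0.70 log2 units each, with 29.5% and 29.7% of the compared genes nearer. Faah and Napepld were farthest, at 1.66 and 1.75.

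Dagla and Daglb encode the diacylglycerol lipases α and β, which release 2-AG from diacylglycerol. Diacylglycerol lipase α is known from the spines of excitatory neurons and supplies most 2-AG in adult mouse brain. Dagla (ENSMUSG00000035735, chromosome 19, 10245265 to 10304877, minus strand) stood at 84.4, 91.7 and 90.2 CPM in bound replicates 1 to 3 and at 150.1, 145.2, 128.7 and 119.1 CPM in unbound replicates 1 to 4. All bound libraries were below all unbound ones, and among the unbound ones the UBS pair was above the UBGS pair. The log2 fold change was −0.61 (SE 0.09, edgeR adjusted p = 0.00013), with −0.73 against the UBS and −0.46 against the UBGS libraries alone. With library totals in place of TMM scaling, which moves the median of all genes to 0.43, it was −0.18 (adjusted p = 0.10), or −0.60 relative to that median. In bound libraries Dagla exceeded the level of 84.8% of the protein-coding genes tested, per exon length. The excitatory markers were also lower in bound libraries, and their part in the result for Dagla was not tested.

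Daglb (ENSMUSG00000039206, chromosome 5, 143464584 to 143505942, plus strand) stood at 9.38, 15.7 and 15.6 CPM in bound replicates 1 to 3 and at 11.95, 11.4, 12.3 and 13.04 CPM in unbound replicates 1 to 4. Bound replicate 1 was below every unbound library and the other bound libraries were above every one, so the groups overlapped. The log2 fold change was 0.16 (SE 0.17, edgeR adjusted p = 0.45), and 0.37 (adjusted p = 0.023) without bound replicate 1. In the annotation, 24.1% of the exon length of Daglb lies over exons of Rac1 on the opposite strand. Rac1, which encodes a small GTPase, averaged 523.1 ± 17 CPM in bound libraries and 594.9 ± 29.8 CPM in unbound libraries, a direction that flips with library totals, and without the strand setting reads of the genes cannot be told apart there. The level of Daglb is therefore uncertain.

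Mgll encodes monoacylglycerol lipase, the main 2-AG hydrolase of the brain, known from axon terminals and astrocytes. Mgll (ENSMUSG00000033174, chromosome 6, 88724412 to 88828360, plus strand) stood at 88.4, 109.8 and 124.2 CPM in bound replicates 1 to 3 and at 82.9, 79.5, 74.7 and 75.1 CPM in unbound replicates 1 to 4. The groups did not overlap, with bound replicate 1 just above the highest unbound library. For Mgll this gave a log2 fold change of 0.46 (SE 0.10, edgeR adjusted p = 0.0027), between 0.35 and 0.59 on leaving out any 1 library. Of 8 astrocyte markers 7 were lower in bound libraries and none higher, while all 8 microglia markers were higher. The part of these cell types in the result for Mgll was not tested.

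Abhd12 encodes a membrane lipase of 2-AG and of lysophosphatidylserine that is known to be abundant in microglia. Abhd12 (ENSMUSG00000032046, chromosome 2, 150832493 to 150904741, minus strand) stood at 126.8, 124.1 and 117.5 CPM in bound replicates 1 to 3 and at 104.2, 87.8, 85.4 and 82.2 CPM in unbound replicates 1 to 4. The groups did not overlap, and the bound libraries lay close together. The log2 fold change was 0.45 (SE 0.09, edgeR adjusted p = 0.00096). The summed microglia markers stood at 276.9, 639.1 and 218.8 CPM in bound replicates 1 to 3 and at 77.1 to 112.2 CPM in unbound libraries, and their part in the result was not tested. With an offset for exon length in each library the fold change was 0.17 (adjusted p = 0.14). The exons of Abhd12 add up to 2823 bases, against 5077 for Mgll, whose fold change was 0.54 with that offset.

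Abhd6 encodes a 2-AG hydrolase of the postsynaptic side of neurons. Abhd6 (ENSMUSG00000025277, chromosome 14, 8002902 to 8056763, plus strand) stood at 27.6, 21.1 and 21.6 CPM in bound replicates 1 to 3 and at 21.9, 22.8, 23.4 and 23.1 CPM in unbound replicates 1 to 4. Bound replicate 1 was above all unbound libraries and the other bound libraries were below all of them. Abhd6 had a log2 fold change of 0.04 (SE 0.11, edgeR adjusted p = 0.78), a value whose sign changed with the exon length offset (−0.36, adjusted p = 0.020) and without bound replicate 1 (−0.09).

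Napepld encodes N-acyl phosphatidylethanolamine phospholipase D, which releases anandamide and other N-acylethanolamines, and in mouse hippocampus is known from dentate granule cells and their mossy fibres. Napepld (ENSMUSG00000044968, chromosome 5, 21662901 to 21701396, minus strand) stood at 15.5, 14.0 and 13.1 CPM in bound replicates 1 to 3 and at 49.8, 47.5, 43.0 and 43.8 CPM in unbound replicates 1 to 4. The groups were far apart and tight. On the log2 scale Napepld differed by −1.70 (SE 0.10, edgeR adjusted p = 1.4e-07), lower than that of most genes, with 11.7% below it.

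Faah encodes fatty acid amide hydrolase, which breaks down anandamide and is known from the cell bodies and dendrites of excitatory neurons. Faah (ENSMUSG00000034171, chromosome 4, 115967145 to 116017926, minus strand) stood at 15.5, 20.4 and 23.3 CPM in bound replicates 1 to 3 and at 58.2, 57.5, 54.6 and 52.3 CPM in unbound replicates 1 to 4. Every bound library lay under every unbound one, though the bound libraries ranged 1.502-fold among themselves. The log2 fold change was −1.498 (SE 0.13, edgeR adjusted p = 2.3e-06). Napepld and Faah fell, as did most of the excitatory, astrocyte, oligodendrocyte, precursor and endothelial markers given above. The part of these cell types in the results for Napepld and Faah was not tested.

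**Figure D2:**
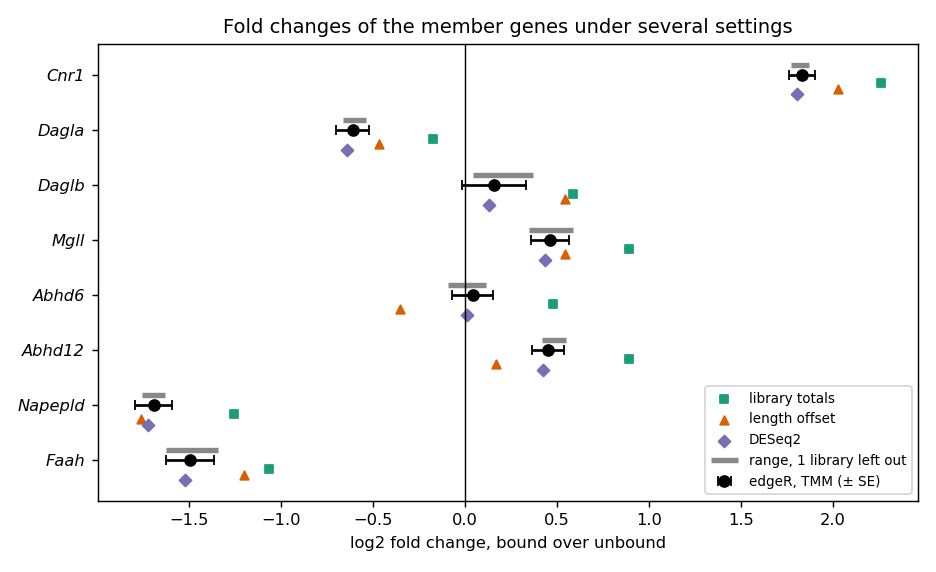
Log2 fold change, bound over unbound, of each gene (black points with SE, edgeR with TMM scaling), with DESeq2 (diamonds), library totals (squares), an exon length offset (triangles) and the range on leaving out each library in turn (grey bars). Cnr1 lies far to the right and Napepld and Faah far to the left of 0 in every setting drawn, while library totals move each gene to the right by about the shift of all genes.

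The 3 genes with at least 2-fold differences are shown with the 250 bases before an annotated start, because Napepld and Faah fell together and Cnr1 rose. Sequences are from RefSeq (GRCm38.p6), read 5′ to 3′ on the gene's strand, and capitals mark the GC box GGGCGG or its reverse complement. The Cnr1 window is chr4:33924014-33924263 (plus strand, before the most upstream of its 3 listed starts), the Napepld window chr5:21701623-21701872 (minus strand) and the Faah window chr4:116017925-116018174 (minus strand).
Cnr1: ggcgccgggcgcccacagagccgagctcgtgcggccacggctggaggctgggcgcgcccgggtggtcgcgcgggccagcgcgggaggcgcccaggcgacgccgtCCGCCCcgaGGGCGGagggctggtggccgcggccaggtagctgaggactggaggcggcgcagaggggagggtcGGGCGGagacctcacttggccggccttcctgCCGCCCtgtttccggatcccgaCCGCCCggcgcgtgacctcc
Napepld: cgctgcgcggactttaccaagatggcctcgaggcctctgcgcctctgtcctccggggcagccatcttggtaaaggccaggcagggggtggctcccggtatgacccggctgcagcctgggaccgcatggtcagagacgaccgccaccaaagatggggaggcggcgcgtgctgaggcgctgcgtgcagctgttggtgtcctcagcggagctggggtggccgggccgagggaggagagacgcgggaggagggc
Faah: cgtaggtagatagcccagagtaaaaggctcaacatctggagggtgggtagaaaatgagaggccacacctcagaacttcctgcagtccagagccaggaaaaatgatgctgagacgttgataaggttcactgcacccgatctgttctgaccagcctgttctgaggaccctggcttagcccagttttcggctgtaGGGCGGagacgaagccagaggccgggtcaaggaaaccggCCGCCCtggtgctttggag
The Cnr1 window held 5 GC boxes and the Faah window 2, and the Napepld window held none. The windows before the other 2 listed starts of Cnr1 held no GC box, with 68.8% and 49.2% G and C and 28 and 5 CG pairs. The start of the Cnr1 window printed lies before the gene start in GENCODE given above, and the first bases after it were found in no GENCODE transcript of the gene, as for Napepld, whereas those after the other 2 Cnr1 starts and the Faah start were found. Of 32851 such windows before mouse starts, 32.7% held at least 1. G and C made up 79.2% of the printed Cnr1 window, 69.6% of the Napepld window and 55.6% of the Faah window, and CG pairs numbered 36, 21 and 9. None of the 3 printed windows held CCAAT or TATAAA on either strand, which 33.8% and 12.4% of windows did. These counts describe letters in the windows only.

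Per exon length, the order of the 8 genes differed between the groups in the first 6 ranks and was the same for Faah and Daglb, the last 2. In bound libraries Cnr1 led at 89.9 ± 6.33 RPKM, followed by Abhd12 (43.5 ± 1.70), Mgll (21.2 ± 3.55), Dagla (15.5 ± 0.672), Abhd6 (9.91 ± 1.54), Napepld (3.59 ± 0.297), Faah (2.52 ± 0.502) and Daglb (1.42 ± 0.38 RPKM, SD, n = 3). The ranges of neighbours in that order did not overlap. In unbound libraries Abhd12 led at 31.8 ± 3.48 RPKM, before Cnr1 (25.3 ± 1.22), Dagla (23.6 ± 2.51), Mgll (15.4 ± 0.768), Napepld (11.6 ± 0.798), Abhd6 (9.64 ± 0.285), Faah (7.10 ± 0.348) and Daglb (1.27 ± 0.072 RPKM, SD, n = 4). Only Cnr1 and Dagla overlapped there, with Cnr1 above Dagla in 3 of the 4 libraries. From the top gene to the last the means spanned 63.4-fold in bound and 25.1-fold in unbound libraries. Cnr1 stood above 98% of 15100 protein-coding genes tested in bound libraries and above 92.4% in unbound libraries.

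**Figure D3:**
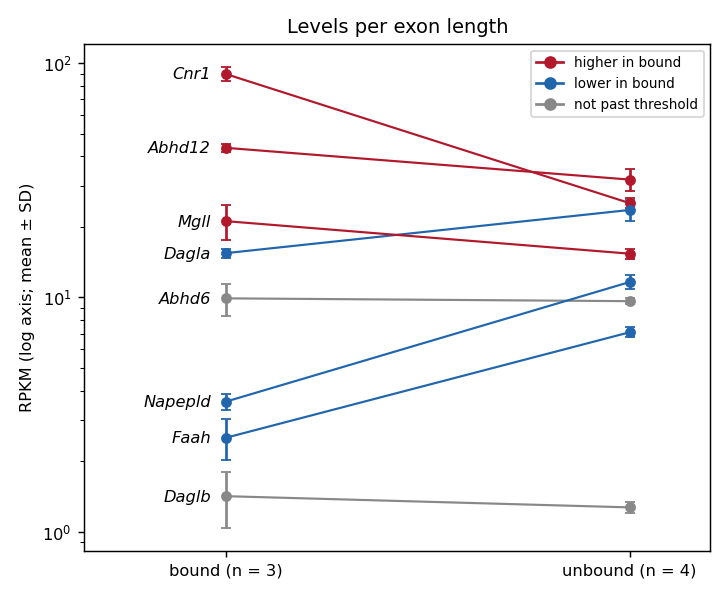
Mean RPKM ± SD of each gene on a log axis, bound (n = 3) left and unbound (n = 4) right, coloured by the call. Cnr1 is first in bound libraries at 89.9 RPKM and second in unbound libraries at 25.3 RPKM, and the lines of Mgll and Dagla cross.

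Ratios of 2 genes within a library do not depend on how libraries are scaled. They can still depend on the exon length offset, which was not applied to them. For 5 such ratios per exon length the exact permutation test over the 35 assignments of 3 of the 7 libraries to the bound group (two-sided) cannot go below p = 0.0571, so no call at 0.05 was possible. Mgll over Dagla compares the RNA of the main 2-AG hydrolase and the main synthase. It leaves out Abhd12, Abhd6 and Daglb and does not measure 2-AG breakdown or synthesis. The ratio was 1.19, 1.35 and 1.56 in bound replicates 1 to 3 and 0.625, 0.620, 0.657 and 0.714 in unbound replicates 1 to 4. Mgll RNA thus exceeded Dagla RNA in every bound library and was below it in every unbound one, a mean difference of 1.06 on the log2 scale (exact p = 0.0571, the smallest possible, adjusted p = 0.143 over the 5 ratios).

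Daglb over Dagla was 0.067, 0.103 and 0.104 in bound replicates 1 to 3 and 0.048, 0.047, 0.057 and 0.066 in unbound replicates 1 to 4, again without overlap (log2 difference 0.73, exact p = 0.0571, adjusted p = 0.143). Bound replicate 1 stood just above unbound replicate 4 in that ratio. The annotated exon overlap of Daglb with Rac1 leaves the ratio uncertain, as it does the level of Daglb. Dagla made up 91.7% ± 1.80 of the summed RPKM of the lipase pair in bound libraries and 94.8% ± 0.792 in unbound libraries (SD, n = 3 and 4).

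Ratios among the hydrolases overlapped between the groups. Abhd12 over Mgll had geometric means of 2.07 in bound and 2.06 in unbound libraries (log2 difference 0.01, exact p = 1), with bound libraries from 1.70 to 2.58. Abhd6 over Mgll had geometric means of 0.469 in bound libraries and 0.627 in unbound libraries (log2 difference −0.42, exact p = 0.229, adjusted p = 0.382), with overlap. Under the exon length offset the log2 fold changes of the genes themselves were 0.17 for Abhd12, 0.54 for Mgll and −0.36 for Abhd6. The near equality of Abhd12 over Mgll therefore holds without that offset only. Of the summed RPKM of the 3 hydrolases, Abhd12 took 58.3% ± 2.73 in bound and 55.9% ± 2.17 in unbound libraries, Mgll 28.4% ± 4.54 and 27.1% ± 0.740, and Abhd6 13.3% ± 2.16 and 17.04% ± 1.58 in the same groups. Faah over Napepld was 0.506, 0.735 and 0.895 in bound replicates 1 to 3 and 0.591, 0.611, 0.641 and 0.602 in unbound replicates 1 to 4. Those groups overlapped (log2 difference 0.18, exact p = 0.457, adjusted p = 0.571), and bound libraries differed among themselves far more than unbound ones.

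**Figure D4:**
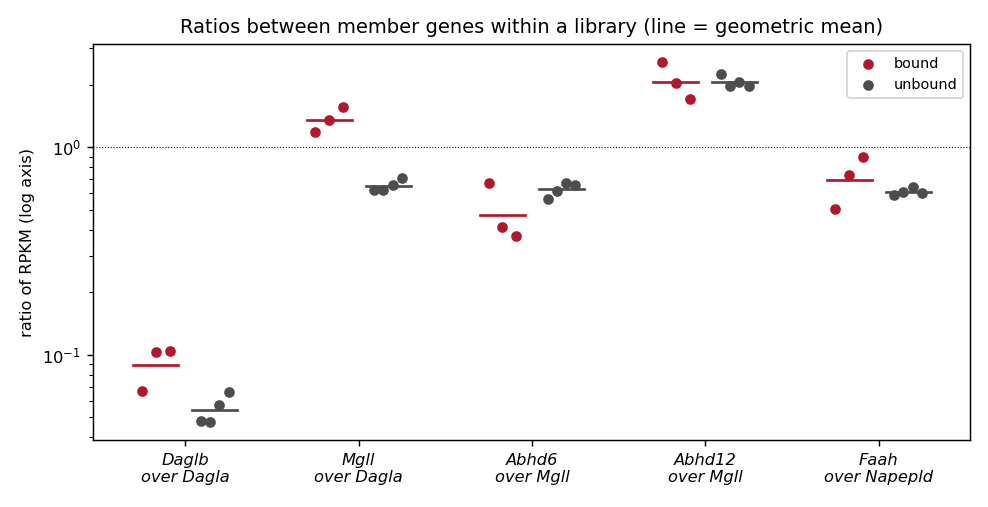
Ratio of RPKM between pairs of genes within each library on a log axis, bound libraries (red) left of unbound libraries (grey), with geometric means as lines. Mgll over Dagla lies above 1 in the 3 bound libraries and below 1 in the 4 unbound libraries, and Abhd12 over Mgll has nearly equal means.

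Bound libraries varied more than unbound ones for several of the genes. The coefficient of variation of CPM was 26.8% in bound and 5.68% in unbound libraries for Daglb, 19.9% and 4.91% for Faah, 16.8% and 5.0% for Mgll, and 15.6% and 2.95% for Abhd6. Dagla and Abhd12 went the other way, at 4.35% and 3.899% in bound and 10.6% and 10.9% in unbound libraries. Bound replicate 1 was the lowest of the bound libraries for Dagla, Daglb, Mgll and Faah and the highest for Abhd6, Abhd12 and Napepld.

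The unbound libraries were also compared by title series, since a difference between UBS and UBGS widens the unbound spread. None of the 8 genes passed (edgeR on the 4 unbound libraries), against 0.229% of 19256 genes. Of the 8, Dagla alone had an unadjusted edgeR p under 0.05, as did 3232 of the 19256 genes tested. Dagla stood at 131.8 and 127.6 CPM in UBS and 113.2 and 104.6 CPM in UBGS libraries, scaled within these 4. Its log2 difference was 0.25 (SE 0.07, edgeR adjusted p = 0.19). The other 7 genes had log2 differences from −0.12 (Daglb) to 0.19 (Abhd12).

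The wider pathway was described by a list of 38 genes that includes the 8. Of the other 30 genes 25 were tested, and 7 rose, 10 fell and 8 did not pass the threshold, with a median log2 fold change of −0.04. Over all genes tested 31% rose and 30.7% fell. The remaining 5 genes (Cnr2, the CB2 receptor gene, with Gpr18, Gpr119, Trpv1 and Hrasls5) did not pass the filter, with group means of at most 0.113 CPM.

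Among receptors and CB1 partners, Ppara, a nuclear receptor for N-acylethanolamines, fell to 0.404 ± 0.260 CPM in bound libraries, against 1.63 ± 0.552 CPM in unbound libraries (log2 −2.03, edgeR adjusted p = 0.0044), a call lost against the UBGS libraries alone. Cnrip1 and Sgip1, whose proteins bind the CB1 receptor, did not pass with TMM scaling (log2 0.20 and 0.05, edgeR adjusted p = 0.055 and 0.51), although Cnr1 itself differed 3.56-fold. Both passed as higher with library totals (0.63 and 0.49), Sgip1 also with the exon length offset (0.47), and Cnrip1 also against the UBS libraries alone (0.29), without unbound replicate 3 (0.25) and without bound replicate 1 (0.24). Gpr55, a receptor for lysophosphatidylinositol, averaged 0.115 ± 0.072 CPM in bound libraries and 0.364 ± 0.185 CPM in unbound libraries (log2 −1.66, edgeR adjusted p = 0.086), and passed as lower without unbound replicate 2 (−1.97).

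The phospholipase C β genes, whose products make the diacylglycerol that the lipases use, moved in both directions. Plcb4 averaged 78.3 ± 2.73 CPM in bound libraries and 22.1 ± 1.04 CPM in unbound libraries, and rose by nearly the same factor as Cnr1 (log2 1.82, edgeR adjusted p = 1.3e-08). Plcb1, prominent in excitatory neurons, averaged 89.3 ± 5.39 CPM in bound libraries and 137.8 ± 7.82 CPM in unbound libraries and fell (log2 −0.63, edgeR adjusted p = 2.5e-05), a call lost with the exon length offset. Plcb3 fell (log2 −0.95) and Plcb2 rose (0.84), both from means under 5 CPM in each group, and the call of Plcb3 was lost with library totals (−0.52). That of Plcb2 was lost without bound replicate 2 or without unbound replicate 1, 3 or 4 (log2 0.75 to 0.80) and against the UBS libraries alone (0.66). Of the Gq-coupled receptors that drive 2-AG synthesis, Chrm1 fell (log2 −1.91), while Grm5 averaged 185 ± 27.5 CPM in bound libraries and 185 ± 9.74 CPM in unbound libraries and passed as higher with library totals or the exon length offset (log2 0.44 and 0.42). Chrm3 averaged 14.7 ± 2.24 CPM in bound libraries and 12.2 ± 1.14 CPM in unbound libraries (log2 0.27, edgeR adjusted p = 0.11), and passed as higher with library totals (0.70), the exon length offset (0.45) or without bound replicate 1 (0.40).

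Other routes of 2-AG breakdown were lower in bound libraries or did not pass. Ptgs2, the cyclooxygenase 2 gene of excitatory neurons, fell to 0.642 ± 0.245 CPM in bound libraries, against 24.8 ± 0.933 CPM in unbound libraries (38.2-fold, edgeR adjusted p = 9.5e-09). Abhd2, known as a 2-AG hydrolase of human sperm, fell 2.85-fold (log2 −1.51), and Abhd16a, a lipase of phosphatidylserine, did not pass (log2 0.18) except as higher with library totals (0.62).

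The other enzymes of N-acylethanolamine synthesis split. Abhd4, which acts on N-acyl phospholipids, fell with Napepld (10.4 ± 0.774 CPM in bound libraries and 26.9 ± 2.77 CPM in unbound libraries, log2 −1.37, edgeR adjusted p = 1.9e-06). Gde1 and Gdpd1, phosphodiesterases that can release N-acylethanolamines, rose (log2 0.67 and 0.43), calls that were lost with the exon length offset (0.06 and 0.03). Exons of Gde1 overlap those of another gene on the opposite strand over 13.5% of their length, so its value is uncertain. Hrasls, an N-acyltransferase gene, rose to 31.9 ± 7.84 CPM in bound libraries, against 16.7 ± 2.29 CPM in unbound libraries (log2 0.94, edgeR adjusted p = 6e-04). Pla2g4e, a calcium-dependent N-acyltransferase gene, and Gdpd3 fell with calls close to the threshold (edgeR adjusted p = 0.045 and 0.033). Gdpd3 was barely detected, at 0.048 ± 0.058 CPM in bound libraries and 0.294 ± 0.137 CPM in unbound libraries. Its exons overlap those of another gene on the opposite strand over 13.6% of their length. The call of Pla2g4e was lost on leaving out unbound replicate 1, 3 or 4 or any bound replicate (log2 −1.06 to −0.78) and with library totals, DESeq2, no filter, the exon length offset or the UBS libraries alone (−0.62). That of Gdpd3 was lost with library totals (−2.22), with no filter, against the UBGS libraries alone (−2.82) and without bound replicate 1 or 2 (−2.03 and −2.42). Gdpd3 was not among the genes tested against the UBS libraries alone or without unbound replicate 1, 3 or 4. Naaa, a lysosomal hydrolase of N-acylethanolamines, did not pass (log2 −0.69, edgeR adjusted p = 0.12), but did as lower against the UBS libraries alone (−1.15) and without unbound replicate 4 (−0.88).

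Among the carriers that move endocannabinoids through the cytosol, Fabp3 and Fabp5 rose and Fabp7, a gene of astrocytes and progenitors, fell. Fabp3 averaged 59.4 ± 7.81 CPM in bound libraries and 21.0 ± 3.01 CPM in unbound libraries (log2 1.497), Fabp5 averaged 74.6 ± 6.37 and 36.1 ± 2.67 CPM in the same groups (log2 1.05), and Fabp7 averaged 7.87 ± 1.61 and 19.6 ± 2.78 CPM (log2 −1.32). Exons of Fabp3 overlap those of other genes on the opposite strand over 19.6% of their length, so its value is uncertain. With the exon length offset the log2 fold change was 0.45 for Fabp3 and −2.12 for Fabp7. Scp2, the other carrier gene listed, averaged 23.8 ± 1.56 CPM in bound libraries and 24.5 ± 1.48 CPM in unbound libraries. It did not pass (log2 −0.04, edgeR adjusted p = 0.75) except as higher with library totals (0.40).

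**Figure D5:**
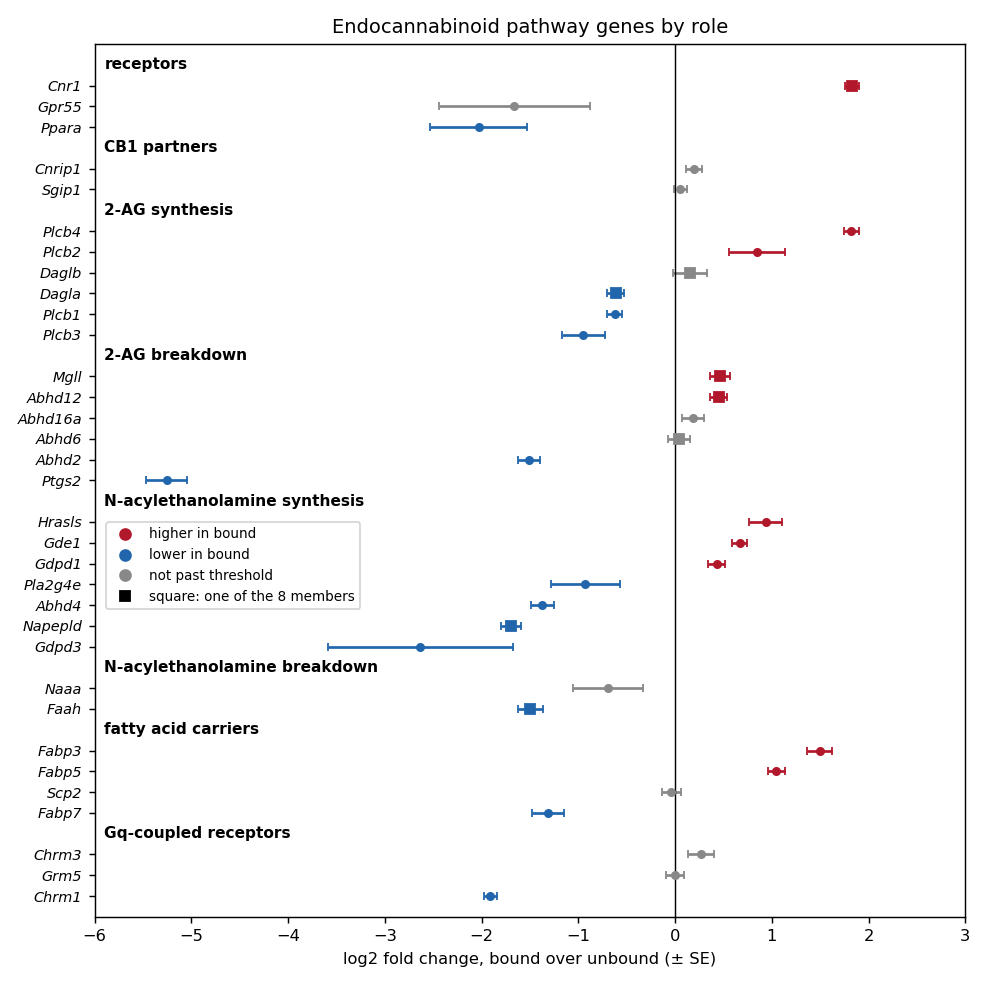
Log2 fold change, bound over unbound, with SE for the 33 tested genes of the pathway list by role, coloured by the call and with squares for the 8 genes described above. Every role with 4 or more tested genes holds both genes that rose and genes that fell, and Ptgs2 lies farthest from 0.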

How the data were processed

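The deposited table holds the authors' raw read counts per gene. Alignment and counting used mm10, STAR 2.5.3a and HTSeq, per the submitters' processing notes. The annotation, strand setting and treatment of multi-mapped reads: not given in the sources used here. IDs were matched without version to GENCODE M21 (GRCm38), which named 37693 of 39017.

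The counts were tested with edgeR 4.0.16 under R 4.3.3 (filterByExpr by group, TMM, robust quasi-likelihood F test, Benjamini-Hochberg adjustment over all 19563 genes, threshold 0.05, all 7 libraries, no block). A fold change is bound over unbound. RPKM divides TMM-scaled CPM by merged exon length. The labels do not say that libraries came from separate animals, so p-values measure the spread between libraries, which may be technical. Within groups, pairs of libraries showed 25.0 to 46.3 times the variance of counting alone, except the UBGS pair (unbound replicates 3 and 4) at 5.57. That pair was thus more alike than any other. All values were above counting error, so none was treated as a duplicate. In counts simulated for 19123 genes of the comparison of bound with unbound, 70 of 100 genes with a change of 1 log2 unit and 92 of 100 with a change of 2 were called in the right direction, beside 6 false calls. Only these genes were changed in the simulation, whereas 61.7% of genes were called in the data, so the counts may not carry over. Smaller changes were not simulated.

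The members, the lists and the tests were chosen with earlier results of these data known. Named genes are the 8 members, the pathway list, the 5 genes nearest to Cnr1 and cell type checks; Rac1 was added for its overlap with Daglb, and 1 gene first on the pathway list is not reported here. Alternatives were library totals, totals of nuclear protein-coding genes, DESeq2 1.42.0, no filter, a 1.5-fold minimum, an exon length offset, each title series alone and each library left out.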

Additional observations from a re-analysis of the deposited data

How the results depend on the processing

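Of 120 recomputed fold changes of the 8 genes between bound and unbound libraries, 109 kept their direction and side of the threshold, among them all 45 of Cnr1, Napepld and Faah. With library totals the median over all genes was 0.43 (TMM −0.01), and 71.5% of calls were higher in place of 50.3%. Dagla no longer passed (−0.18), Daglb (0.59) and Abhd6 (0.48) did, and 5 members and 18 pathway genes were higher in place of 3 and 10. Relative to that median, all 8 stayed within 0.02 of their TMM values. With a 1.5-fold minimum in the test, Dagla (−0.61), Mgll (0.46) and Abhd12 (0.45) did not pass, 1 member was higher, and 5 pathway genes were higher and 8 lower in place of 13. With the exon length offset Daglb passed (0.54), Abhd12 did not (0.17) and Abhd6 turned to −0.36. On leaving out each library, Daglb ranged from 0.040 to 0.37 and Abhd6 from −0.092 to 0.11. Among the ratios, Abhd12 over Mgll ranged from −0.15 to 0.15 and was −0.030 against UBS alone, and Faah over Napepld ranged from −0.0026 to 0.41. For UBS against UBGS, ranges were −0.15 to −0.038 for Cnr1, 0.20 to 0.31 for Dagla, 0.088 to 0.14 for Mgll, 0.069 to 0.31 for Abhd12 and 0.13 to 0.19 for Napepld. Cnr1, Mgll, Abhd12 and Napepld passed without unbound replicate 2 and Dagla without unbound replicate 1 or 2, where the lone UBS library is assumed to vary like the UBGS pair.

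Of the 35 other named genes, 18 kept their call in all settings. Genes near 0 changed sign: Abhd16a with the length offset (−0.0068), Scp2 with library totals (0.40), against UBGS alone (0.044) and on leaving out libraries (−0.068 to 0.018), and Grm5 with DESeq2 (−0.028), against UBS alone (−0.054) and on leaving out libraries (−0.086 to 0.12). Rac1 was at 0.25 with library totals and lost its call in most settings. The causes of these changes were not tested. No paired analysis was possible because no label links a bound library to an unbound one. The replicate numbers used here do not pair them. Counts of the 8 genes ran from 407 to 34502 per library, and for Daglb and Abhd6 in unbound libraries counting error is a large part of the spread.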
